A study of Macaca fascicularis with 16 samples.

Results

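The DNAJ genes encode the J-domain co-chaperones of the HSP70 system. They were taken here as every entry of the count tables whose symbol begins with DNAJ, then A, B or C, then a digit. There were 50 such symbols among 23602, of which 5 were class A, 14 class B and 31 class C. They were read in unfractionated mononuclear cells of peripheral blood (PBMC). The donors were 4 Mauritian-origin animals of the species Macaca fascicularis (cynomolgus macaque), named LG04, LG11, LG12 and LG15. Each animal was bled before NKTT320, a monoclonal antibody to the invariant T cell receptor of iNKT cells, and 30 minutes, 2 hours and 1 day after it, which gives 16 libraries, 4 at each time. All 4 animals carried the label NKTT320 treated and each served as its own control. No untreated or vehicle-treated animal was analysed here, so NKTT320 and other things that changed over the same hours cannot be told apart. The labels used here give no genotype, age or dose.

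A J-domain protein binds an HSP70 partner, makes it hydrolyse ATP and so lock onto a client protein, and often brings the client along. Class A members resemble the bacterial DnaJ with its zinc-binding region, class B members share a glycine and phenylalanine rich stretch, and class C members have in common little but the J domain. Some, such as DNAJB1 and DNAJA1, are heat-shock genes, and others work in the endoplasmic reticulum (ER), the mitochondria or on clathrin-coated vesicles.

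Libraries held between 1417467 and 8582852 counts, and 3 counts corresponded to between 0.35 and 2.12 CPM (counts scaled to a library size of 1000000), which sets the resolution for the weakest members. Globin genes took between 0.025% and 48.7% of the counts. In LG04 they took 20.3%, 38.2%, 48.7% and 13.6% before, at 30 minutes, at 2 hours and at 1 day, and in LG12 at most 0.172%. At 1 day LG04 and LG15 had similar counts, with a chi-square of 8.36 for each gene between them, while LG04 at 1 day against its own earlier libraries gave 67.2 (pre-treatment), 96.3 (30 minutes) and 118 (2 hours). LG15 at 1 day against its own earlier libraries gave 55.95, 105.95 and 27.01 in the same order. This chi-square was taken on raw counts with globin included, so it also rises with depth and with differences in globin share. The earlier LG04 libraries held between 6362826 and 8582852 counts. At 1 day LG04 and LG15 held 1846011 and 3156626 counts, with 13.6% and 20.8% globin. The counts over 4 animals at 1 day given below take in both of these libraries, and whether they came from different animals was not tested. The closest pair of all was pre-treatment and 2 hours in LG12, at 4.14. Of 24 count columns in the series-wide files 23 equalled the library of the same name. The exception was named for LG04 at 2 hours and carried its 1 day counts. The tables made per animal were therefore used, and several results are also given without LG04 or without one of these libraries of it. No T cell, NK cell, B cell or monocyte marker was at 0 in all 16 libraries. In such bulk samples, fewer cells of a type and less RNA per cell cannot be told apart.

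A filter on low counts left 34 of the 50 members to test, 4 of class A, 8 of class B and 22 of class C. By length-scaled values (FPKM), DNAJA1, a cytosolic co-chaperone of the constitutive HSP70, had the highest mean at 42.4 FPKM ± 7.0 (SD over the means of 4 animals). DNAJC7, which links HSP70 and HSP90, followed at 36.1 FPKM ± 12.2, and DNAJC13, an endosomal protein also called RME-8, at 30.6 FPKM ± 10.1. DNAJA2 (26.8 FPKM ± 2.59) and DNAJB6 (26.5 FPKM ± 5.38) came next. Each of these 5 means lay within 1 SD over animals of its neighbour in the order. At the lower end stood DNAJC6 (2.33 FPKM ± 1.50), DNAJC30 (2.21 FPKM ± 0.584) and DNAJC27 (1.80 FPKM ± 0.638). The median of the tested members' mean FPKM was 17.9 in class A, 14.3 in class B and 7.37 in class C, beside 9.64 over the 11545 genes tested. LG04 had the lowest mean FPKM for 31 of the 34 members. On the CPM scale used below, in which the library size is the one after TMM scaling, LG04 was lowest for 12 of 34.

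**Figure D1:**
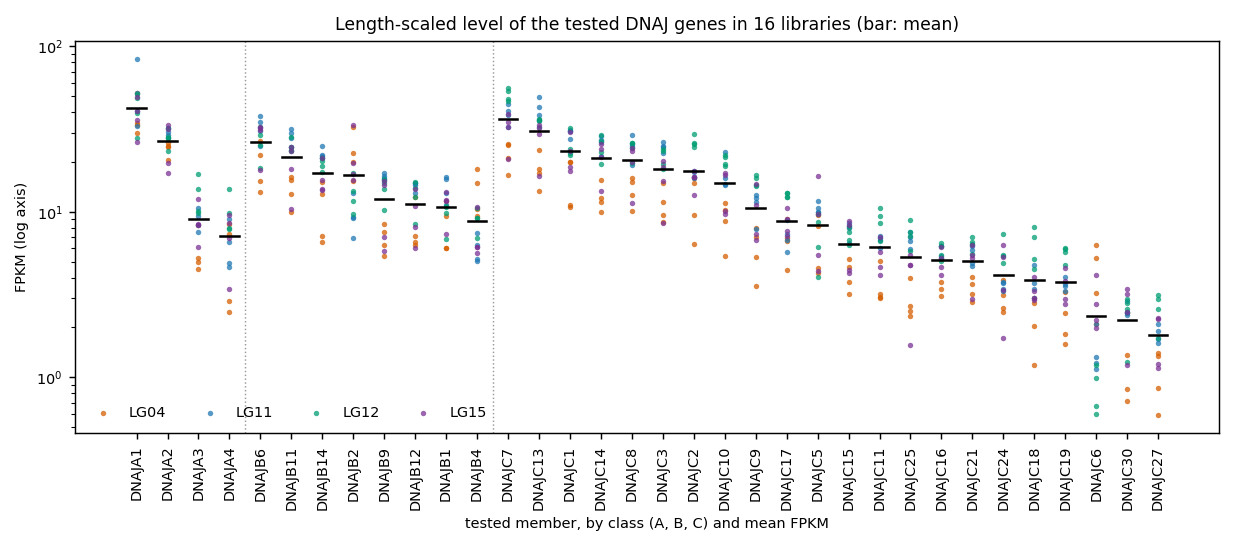
Deposited FPKM (log axis) of the 34 tested DNAJ members in each of 16 libraries, coloured by animal, with dotted lines between classes A, B and C and a bar at the mean. DNAJA1 has the highest mean, 42.4 FPKM, and DNAJC27 the lowest, 1.80 FPKM.

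The summed level of the family differed less between the means of the 4 times than between animals at any 1 time. The summed level of the 50 members was 1345 CPM ± 60.9 (SD, n = 4) before NKTT320, 1326 CPM ± 49.6 at 30 minutes, 1353 CPM ± 138.8 at 2 hours and 1367 CPM ± 173.9 at 1 day. Class C made up 65.7% of that sum before NKTT320, class B 20.2% and class A 14.2%. DNAJC13 alone made up between 12.9% and 21.0% of it in each library.

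No member passed the test at any time. edgeR's quasi-likelihood test with the animal as a block, adjusted over 11545 genes at a threshold of 0.05, called 0 of 34 members at 30 minutes against pre-treatment, where the background of all tested genes called was 0.0%. It called 0 of 34 at 2 hours (background 0.0%), 0 of 34 at 1 day (background 0.225%, 26 genes), 0 of 34 at 2 hours against 30 minutes (background 0.0%) and 0 of 34 at 1 day against 2 hours (background 0.104%, 12 genes). The joint test over the 4 times also called 0 of 34 members, with a background of 0.104%. At an unadjusted p under 0.05 the counts of members were 2 at 30 minutes, 2 at 2 hours, 1 at 1 day, 1 at 2 hours against 30 minutes and 4 at 1 day against 2 hours, beside 2.53%, 7.43%, 13.6%, 4.6% and 12.6% of all tested genes. In the joint test 2 members were under 0.05 unadjusted, beside 12.2% of all genes. DESeq2 on the same counts called 1 member, DNAJA4, at 2 hours, at 1 day against 2 hours and over the 4 times, and none at 30 minutes, at 1 day or at 2 hours against 30 minutes. DESeq2 also called more genes in all, 79 at 2 hours and 400 at 1 day.

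The median log2 fold change of the 34 members was -0.00 at 30 minutes, -0.06 at 2 hours and 0.00 at 1 day against pre-treatment, beside 0.02, 0.02 and -0.00 over all tested genes. Scaling by total counts instead of TMM moved the median of all genes to -0.14, -0.24 and -0.19 and that of the members to -0.16, -0.35 and -0.21. The members' median size of change, regardless of sign, was 0.10, 0.16 and 0.13, beside 0.13, 0.19 and 0.20 over all genes. Of the 34, 2, 4 and 4 were lower in 4 of 4 animals at 30 minutes, 2 hours and 1 day, and 0, 3 and 2 were higher in 4 of 4. The shares of all genes lower in 4 of 4 animals were 4.42%, 6.52% and 9.09%, and the shares higher in 4 of 4 were 6.21%, 8.06% and 9.83%. At 1 day against 2 hours 5 members were higher and 3 lower in 4 of 4 animals, beside 11.3% and 9.16% of all genes.

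**Figure D2:**
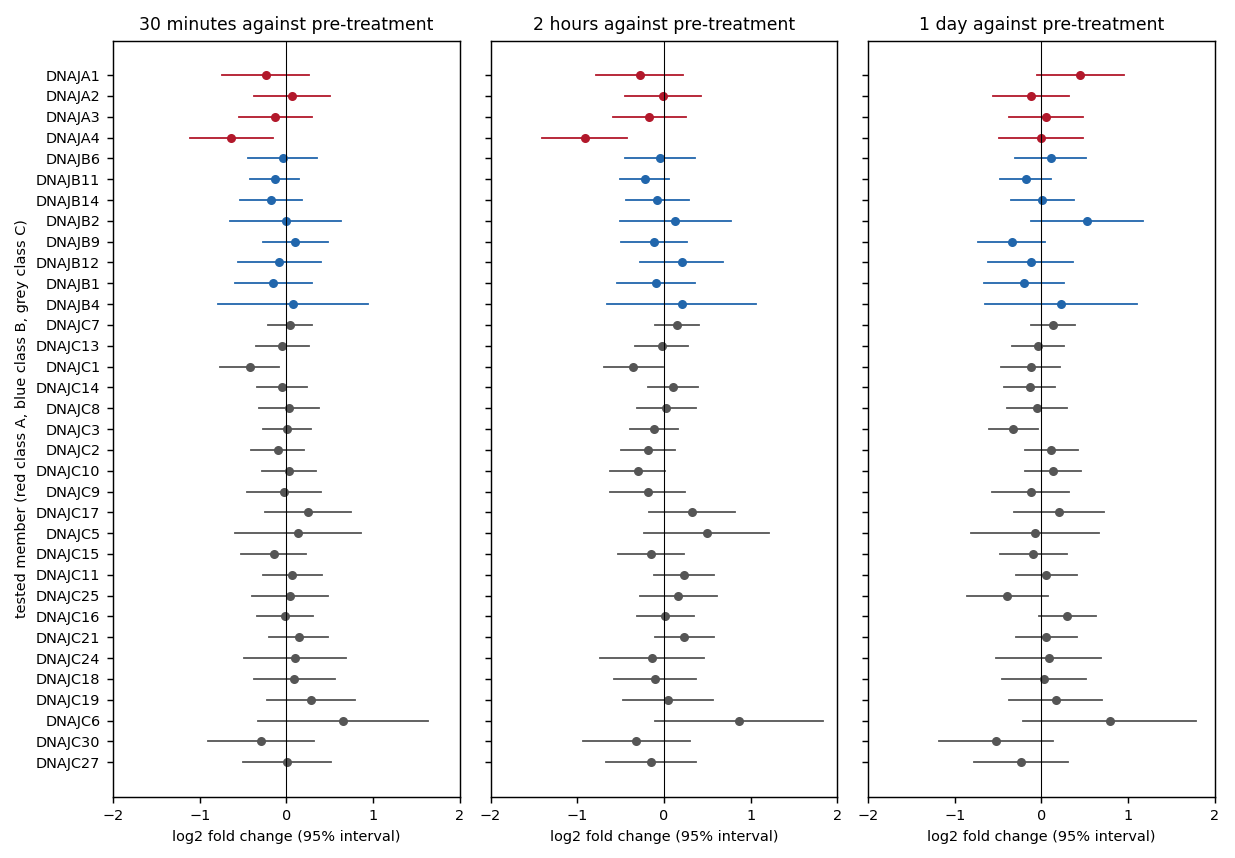
Log2 fold change against pre-treatment of the 34 tested members at 30 minutes, 2 hours and 1 day, with 95% intervals from the edgeR fit. Class A is red, class B blue and class C grey. DNAJA4 at 2 hours has the lowest value, -0.92, and DNAJC6 at 2 hours the highest, 0.87.

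By class, the 4 tested class A members had median log2 fold changes of -0.18 at 30 minutes, -0.23 at 2 hours and 0.03 at 1 day, and 0.48 at 1 day against 2 hours. The 8 class B members had -0.06, -0.06 and -0.06 against pre-treatment, and 0.03 at 1 day against 2 hours. The 22 class C members had 0.03, -0.01 and -0.01, and -0.05 at 1 day against 2 hours. The class A medians differed among animals. At 2 hours they were -0.25 in LG11, -0.60 in LG12, -0.66 in LG15 and 0.35 in LG04. Summed class A was 190 CPM ± 4.0 before NKTT320 and 174 CPM ± 74.0 at 2 hours, when LG04 stood at 282.5 CPM and the other animals between 126 and 160.1 CPM. The LG04 values differ between scalings, as its TMM factor was 0.94 before and 0.46 at 2 hours. Total counts include globin, which took 20.3% of LG04 counts before and 48.7% at 2 hours. Scaling by them therefore lowers all other genes as the globin share rises, and which scaling is nearer was not tested. Scaled by total counts, DNAJA1 and DNAJA2 in LG04 were 50.0 and 79.2 CPM before and 42.2 and 70.7 CPM at 2 hours. Under that scaling DNAJA3 and DNAJA4 in LG04 were 23.1 and 21.7 CPM before and 10.65 and 6.22 CPM at 2 hours. No test was made of the difference between classes.

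DNAJA4, a cytosolic class A member, was the member with the smallest p over time, and 61.3% of its variance over the 16 libraries lay between times, the largest share among the tested members. Before NKTT320, at 30 minutes, at 2 hours and at 1 day LG04 had 23.1, 12.4, 13.6 and 30.9 CPM and LG11 had 22.1, 12.9, 11.1 and 16.7 CPM. LG12 had 29.9, 23.0, 17.3 and 19.7 CPM, and LG15 had 23.7, 16.6, 9.99 and 32.0 CPM. Each animal was lower at 30 minutes and at 2 hours than before, and the highest 2 hour value, 17.3 CPM, lay under the lowest pre-treatment value, 22.1 CPM. DNAJA4 was the only one of the 34 tested members whose 2 hour and pre-treatment values did not overlap, beside 1.03% of all tested genes whose 2 hour values lay wholly below. The log2 fold change was -0.64 ± 0.22 (SE) at 30 minutes with an adjusted p of 1.0 in edgeR, and -0.92 ± 0.23 at 2 hours (95% interval -1.41 to -0.43) with an adjusted p of 0.26. At 1 day the 4 animals were 16.7 to 32.0 CPM and the log2 fold change against pre-treatment was -0.00 (95% interval -0.49 to 0.48), and -0.16 without the 1 day library of LG04. At 1 day against 2 hours it was 0.91 ± 0.23, higher in 4 of 4 animals, with an edgeR adjusted p of 0.216. DESeq2 gave nearly the same sizes, -0.92 at 2 hours and 0.94 at 1 day against 2 hours, with adjusted p-values of 0.0395 and 0.0369, so the call differs between tools. The 2 hour value was -0.94 without the 2 hour library of LG04, and -0.97 without LG04 altogether. The 1 day value against 2 hours was 0.75 without the 1 day library of LG04. Scaled by total counts, DNAJA4 was again lower at 2 hours in each animal, for example from 25.9 to 12.7 CPM in LG11 and from 38.0 to 21.7 CPM in LG12. Under that scaling the median log2 change of all genes at 2 hours was -0.24. The LG04 values under it also fall with the rise of its globin share.

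DNAJA1, the most abundant member per length, differed in course between LG04 and the other animals. LG04 had 53.3, 65.2, 91.9 and 93.3 CPM before, at 30 minutes, at 2 hours and at 1 day, and LG11 had 63.0, 44.6, 49.2 and 107 CPM. LG12 had 54.6, 43.8, 29.9 and 56.9 CPM, and LG15 had 61.8, 48.6, 36.0 and 69.9 CPM. LG11, LG12 and LG15 were lower at 30 minutes and 2 hours than before, and LG04 was higher. All 4 animals were higher at 1 day than at 2 hours (log2 0.73 ± 0.23, edgeR adjusted p 0.275) and than before (0.45 ± 0.23, adjusted p 0.447), with overlapping groups. Against pre-treatment the 2 hour value was -0.28 with all 16 libraries and -0.58 (adjusted p 0.781) without the 2 hour library of LG04. At 1 day against 2 hours it was 1.03 (adjusted p 0.0903) without that library. Scaled by total counts, DNAJA1 was 50.0 CPM before and 42.2 CPM at 2 hours in LG04. Those totals include globin, whose share of LG04 counts rose between these times, so the fall under that scaling holds globin dilution too.

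DNAJA2, another cytosolic class A member, had 84.5, 118, 154 and 78.2 CPM in LG04 over the 4 times. In the other animals it lay between 58.0 and 88.4 CPM. Its log2 fold change was 0.07, -0.01 and -0.12 at 30 minutes, 2 hours and 1 day. Scaled by total counts LG04 had 79.2 CPM before and 70.7 CPM at 2 hours. The higher 2 hour value is not seen under that scaling, which takes in the rise of globin in LG04. DNAJA3, the mitochondrial class A member, lay between 17.1 and 37.1 CPM in the 16 libraries, with fold changes of -0.13, -0.17 and 0.06.

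**Figure D3:**
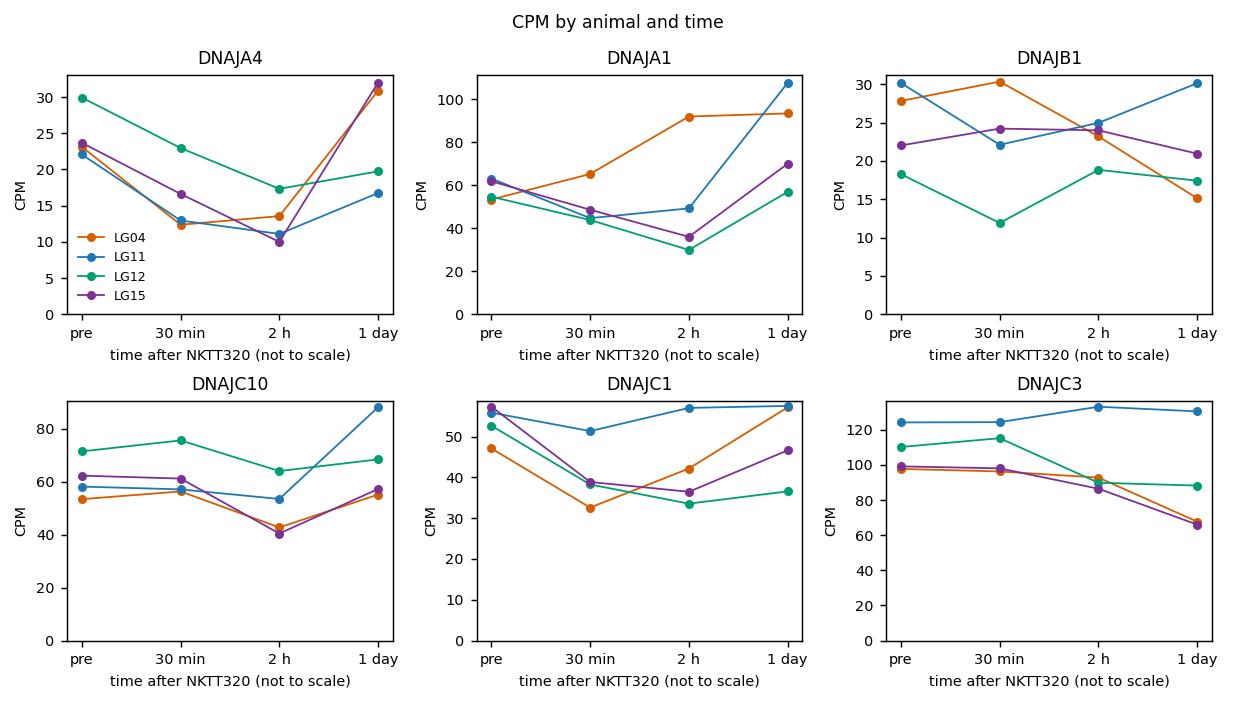
CPM (TMM-scaled) of 6 members in each animal, with a line per animal and time not drawn to scale. DNAJA4 is lower in 4 of 4 animals at 30 minutes and 2 hours than before, DNAJA1 is higher in 4 of 4 at 1 day than at 2 hours, and DNAJB1 stays between 11.9 and 30.3 CPM.

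DNAJB1, the classical heat-inducible HSP40, had no common direction over the animals at 30 minutes or 2 hours. At 1 day LG04 was below pre-treatment by a log2 difference of -0.84. LG11, LG12 and LG15 differed by only -0.001, -0.066 and -0.069. Over the 4 times LG04 had 27.8, 30.3, 23.2 and 15.1 CPM, LG11 had 30.2, 22.1, 25.0 and 30.1 CPM, LG12 had 18.3, 11.9, 18.8 and 17.4 CPM and LG15 had 22.0, 24.2, 24.0 and 20.9 CPM. The values of every time overlapped those of every other. The log2 fold change was -0.15 at 30 minutes, -0.10 at 2 hours and -0.20 at 1 day (95% interval at 1 day -0.67 to 0.26). The 1 day value was -0.06 without LG04 and -0.02 without its 1 day library. At 30 minutes it was -0.31 and at 2 hours -0.05 without LG04. The 95% interval at 1 day runs from below 0 to above 0, so with 4 animals it settles no direction.

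DNAJB4, a further heat-inducible class B member, was set apart by LG04. In LG04 it was 25.1, 47.2, 72.3 and 23.7 CPM over the 4 times. LG11 had 14.0, 12.5, 9.65 and 9.57 CPM, LG12 had 17.7, 16.2, 11.9 and 16.3 CPM and LG15 had 12.0, 10.2, 13.0 and 30.8 CPM. The 2 hour log2 fold change was 0.20 with LG04 and -0.36 without it, and neither passed the edgeR test. Of the 12 libraries of the other animals, the one with the highest DNAJB4 value, LG15 at 1 day, also had the highest globin share, 20.8%. Scaled by total counts, LG04 was 23.6 CPM before and 33.2 CPM at 2 hours. The mean log2(CPM + 1) of the 8 red cell markers in LG04 was 11.5, 12.9, 13.5 and 10.5 over the 4 times, and that of the 10 platelet markers 3.73, 6.29, 7.46 and 9.28. None of these markers was at 0 in all libraries. In LG12, with the lowest red cell scores (2.18 to 4.12), DNAJB4 was 11.9 to 17.7 CPM. The part of red cell RNA in the DNAJB4 values was not tested.

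Among the small class B proteins of cytosol and nucleus, DNAJB2, which also binds ubiquitin, was 42.1, 68.0, 91.3 and 85.4 CPM in LG04 and 34.0, 36.0, 49.5 and 91.7 CPM in LG15. It was 28.0, 22.3, 15.6 and 17.9 CPM in LG11 and 26.4, 21.7, 23.4 and 33.1 CPM in LG12. Its highest values stood in the LG04 libraries and in LG15 at 2 hours and 1 day. These are the libraries with globin shares over 10%, other than LG11 at 30 minutes (10.4%), where DNAJB2 was low. That order was read on the TMM scale. Scaled by total counts, DNAJB2 in LG04 was 39.4, 42.3, 41.9 and 70.4 CPM over the 4 times. Total counts include globin itself, so that scaling lowers DNAJB2 most where the globin share is highest and cannot check the order. LG15 at 30 minutes, with 3.36% globin, stood at 42.9 CPM under that scaling. The 1 day log2 fold change of DNAJB2 was 0.52 ± 0.30 (edgeR adjusted p 0.524), higher in 3 of 4 animals. It was 0.18 without LG15 and 0.98 without LG11, and neither passed. The share of red cell RNA in it was not tested. DNAJB6, which keeps aggregation-prone proteins soluble, was 40.1, 43.3, 50.3 and 67.7 CPM in LG04, 49.1, 38.6, 43.5 and 56.8 CPM in LG11, 35.8, 39.5, 32.7 and 26.7 CPM in LG12 and 49.2, 46.6, 43.5 and 41.1 CPM in LG15. Its fold changes were -0.05, -0.05 and 0.11 on the log2 scale.

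All 10 members listed here under the ER were tested. Of these, 5, 7 and 6 had a log2 fold change below 0 at 30 minutes, 2 hours and 1 day (46.0%, 47.3% and 50.0% of all genes). Their medians were -0.00, -0.11 and -0.13. DNAJC3, also known as P58IPK, which binds unfolded clients in the lumen, had 97.7, 96.3, 92.8 and 67.7 CPM in LG04 over the 4 times. In LG11 it had 124, 124, 133 and 130.4 CPM, in LG12 110.2, 115, 89.8 and 88.2 CPM and in LG15 99.2, 98.0, 86.4 and 66.0 CPM. It was lower at 1 day in LG04, LG12 and LG15 and higher in LG11, with a log2 fold change of -0.33 ± 0.13 (unadjusted p 0.0265 and adjusted p 0.27, edgeR). Without the 1 day library of LG04 or any one animal it stayed below 0, and leaving out each animal in turn gave values from -0.44 to -0.23.

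DNAJC1, an ER membrane protein whose J domain faces the lumen, had 47.1, 32.6, 42.2 and 57.2 CPM in LG04 and 55.9, 51.3, 57.0 and 57.5 CPM in LG11. In LG12 it had 52.7, 38.3, 33.6 and 36.6 CPM and in LG15 57.3, 38.9, 36.5 and 46.6 CPM. It was lower at 30 minutes in 4 of 4 animals (log2 -0.42 ± 0.16, edgeR adjusted p 1.0) and at 2 hours in 3 of 4 (-0.35 ± 0.16, adjusted p 0.655). DNAJC10, the ER disulfide reductase ERdj5, had 53.5, 56.4, 42.8 and 55.2 CPM in LG04 and 58.2, 57.1, 53.5 and 88.2 CPM in LG11. In LG12 it had 71.5, 75.7, 64.1 and 68.5 CPM and in LG15 62.3, 61.2, 40.5 and 57.3 CPM. It had its lowest value of the 4 times at 2 hours in each animal. The 1 day value against 2 hours was 0.43 ± 0.15 (unadjusted p 0.0122, adjusted p 0.29, edgeR).

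DNAJB9 (ERdj4), which restrains the stress sensor IRE1, had 23.1, 28.1, 25.0 and 19.7 CPM in LG04, 35.9, 38.0, 37.6 and 34.6 CPM in LG11, 26.6, 31.0, 30.7 and 20.9 CPM in LG12 and 33.7, 30.6, 17.5 and 19.8 CPM in LG15. It was lower at 1 day than before in 4 of 4 animals (log2 -0.34 ± 0.18, edgeR adjusted p 0.45), with overlapping groups, and was -0.18 without LG15. DNAJB11 (ERdj3), a co-chaperone of the ER HSP70 BiP, had 28.8, 30.3, 28.3 and 29.6 CPM in LG04, 42.7, 34.6, 37.0 and 40.2 CPM in LG11, 33.0, 30.6, 26.8 and 30.2 CPM in LG12 and 33.7, 29.4, 26.5 and 22.5 CPM in LG15. It was lower at 2 hours in 4 of 4 animals (-0.22 ± 0.13, adjusted p 0.753). DNAJC25, a membrane protein, had 10.7, 8.61, 12.3 and 6.57 CPM in LG04, 14.8, 13.2, 16.2 and 14.2 CPM in LG11, 13.4, 18.3, 14.7 and 11.6 CPM in LG12 and 9.80, 11.0, 11.5 and 5.14 CPM in LG15. All 4 animals had less at 1 day than at 2 hours (-0.56 ± 0.22, edgeR adjusted p 0.331) and than before (-0.40 ± 0.22, adjusted p 0.533), a value of -0.25 without LG15.

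DNAJC16, another ER member, had a 1 day value above 0. It had 25.0, 30.7, 33.4 and 41.4 CPM in LG04, 28.3, 29.9, 34.2 and 34.2 CPM in LG11, 29.3, 27.6, 24.0 and 33.1 CPM in LG12 and 33.3, 27.1, 26.0 and 35.2 CPM in LG15, higher at 1 day than before in 4 of 4 (0.30 ± 0.15, edgeR adjusted p 0.43). That value was 0.15 without LG04 and 0.16 without the 4 shallowest libraries. The remaining ER members, DNAJB12, DNAJB14 and DNAJC18, had fold changes against pre-treatment between -0.18 and 0.20. The ER members thus lay on both sides of 0, and none of the 10 passed the adjusted test.

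The 5 tested mitochondrial members were low. Besides DNAJA3 they were DNAJC11, DNAJC15, DNAJC19 and DNAJC30, of which DNAJC15 and DNAJC19 belong to the import motor of the inner membrane. Their medians were -0.13, -0.15 and 0.06 at 30 minutes, 2 hours and 1 day. DNAJC30, at 2.55 to 7.20 CPM, was lower at 1 day than before in 4 of 4 animals (-0.53 ± 0.30, edgeR adjusted p 0.516), with -0.35 without LG04.

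On vesicles and endosomes, DNAJC6 (auxilin), which strips clathrin from coated vesicles, had the widest spread of all tested members, a coefficient of variation of 106.7% over 16 libraries beside a median of 21.2% in the family. It was 13.4, 45.1, 67.2 and 23.7 CPM in LG04, 5.98, 11.6, 6.75 and 5.98 CPM in LG11, 3.11, 2.98, 4.76 and 5.80 CPM in LG12 and 13.9, 9.81, 13.5 and 32.8 CPM in LG15. As with DNAJB4, LG04 at 30 minutes and 2 hours and LG15 at 1 day were its 3 highest libraries, and these were also the libraries with the 3 highest globin shares (38.2%, 48.7% and 20.8%). The log2 fold change at 2 hours was 0.87 ± 0.45 (edgeR adjusted p 0.703), and 0.22 (adjusted p 1.0) without LG04 or 0.38 without its 2 hour library. The part of red cell RNA in it was not tested.

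DNAJC5 (cysteine string protein), a co-chaperone of secretory vesicles, had 56.5, 65.2, 46.4 and 27.6 CPM in LG04, 53.6, 53.8, 47.1 and 48.1 CPM in LG11, 25.1, 17.0, 40.9 and 38.3 CPM in LG12 and 26.3, 43.6, 85.4 and 31.2 CPM in LG15. Its 2 hour log2 fold change was 0.50 ± 0.33 (edgeR adjusted p 0.788), up in LG12 and LG15 and down in LG04 and LG11, and 0.08 without LG15. DNAJC13, the member with the most counts, had 202, 199.6, 194 and 175 CPM in LG04, 255, 257, 292 and 341 CPM in LG11, 221, 219, 196 and 227 CPM in LG12 and 233, 210.0, 223 and 169.9 CPM in LG15. Only 0.6% of its variance lay between times and 71.3% between animals, and its fold changes were -0.05, -0.03 and -0.04.

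The last group took in 8 members, most with work in the nucleus or at the ribosome, and had medians of 0.04, 0.07 and 0.07. DNAJC7 had 53.6, 60.7, 59.3 and 59.8 CPM in LG04, 61.8, 57.1, 66.1 and 75.6 CPM in LG11, 74.6, 70.1, 76.6 and 72.0 CPM in LG12 and 54.2, 61.9, 68.9 and 58.5 CPM in LG15. It had the smallest coefficient of variation of the tested members, 11.8%, and was slightly higher at 2 hours than before in 4 of 4 animals (log2 0.15 ± 0.12, edgeR adjusted p 0.805), with 0.09 without LG15 or without the 4 shallowest libraries. DNAJC14 had 57.8, 57.7, 63.3 and 49.9 CPM in LG04, 76.5, 69.2, 80.7 and 87.2 CPM in LG11, 76.6, 64.2, 71.7 and 54.0 CPM in LG12 and 63.6, 72.9, 79.4 and 60.5 CPM in LG15, with fold changes of -0.05, 0.10 and -0.14. DNAJC2, a ribosome-associated chaperone, had 39.0, 31.7, 24.7 and 42.1 CPM in LG04, 29.8, 33.9, 30.6 and 34.9 CPM in LG11, 48.0, 44.2, 42.6 and 46.4 CPM in LG12 and 33.5, 30.1, 34.5 and 38.3 CPM in LG15. It was higher at 1 day than at 2 hours in 4 of 4 animals (0.30 ± 0.15, edgeR adjusted p 0.428), with 0.15 without LG04 and 0.18 without its 2 hour library. The other members of the group, DNAJC8, DNAJC9, DNAJC17, DNAJC21 and DNAJC24, had fold changes against pre-treatment between -0.19 and 0.32.

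Differences between animals were larger than those between times. The median share of a member's variance that lay between animals was 48.5% and between times 14.2%, beside 46.5% and 12.1% over all tested genes. The edgeR test of any difference among the 4 animals called 9 of 34 members, 26.5%, where the background was 44.5% of all tested genes. None of the 4 class A members, 4 of the 8 class B members and 5 of the 22 class C members were among them. They were DNAJC6 (adjusted p 0.00135), DNAJB2 (0.0022), DNAJB4 (0.00865), DNAJC3 (0.00917), DNAJC13 (0.0195), DNAJC25 (0.0253), DNAJB11 (0.0347), DNAJB9 (0.0356) and DNAJC2 (0.0379). On the TMM scale DNAJC6, DNAJB2 and DNAJB4 were highest on average in LG04. DNAJC3, DNAJC13, DNAJB11, DNAJB9 and DNAJC25 were higher on average in LG11 than in LG04, and DNAJC2 was highest in LG12. Without LG04 the test called 8 members, with DNAJC6 and DNAJB2 among them but not DNAJB4, DNAJB9 or DNAJC25. Without LG11 it called 3 (DNAJB2, DNAJB4 and DNAJC6), without LG12 it called 4, and without the 4 shallowest libraries it called 4.

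**Figure D4:**
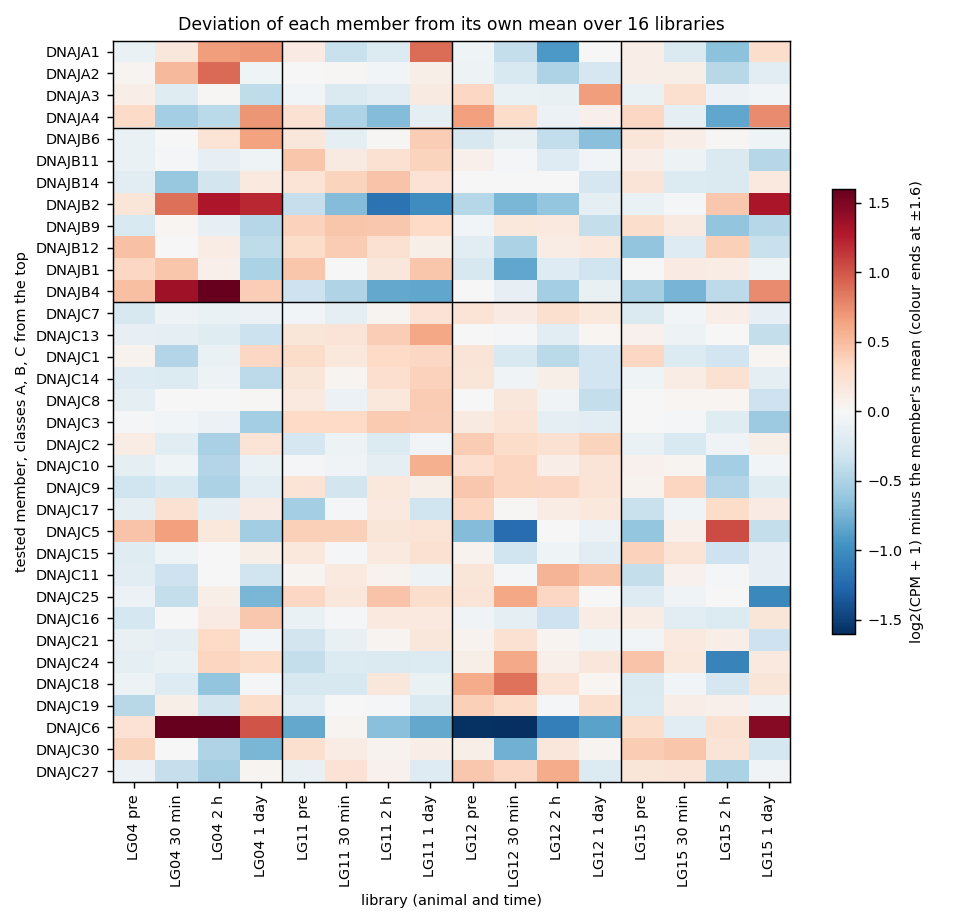
Deviation of log2(CPM + 1) of each tested member from its own mean over the 16 libraries, with libraries grouped by animal and members by class. Among the strongest reds are DNAJB4 and DNAJC6 in LG04 at 30 minutes and 2 hours and DNAJB2 in LG04 at 2 hours and 1 day. Others are DNAJC6 and DNAJB2 in LG15 at 1 day and DNAJC5 in LG15 at 2 hours. DNAJC6 is lowest in LG12.

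**Figure D5:**
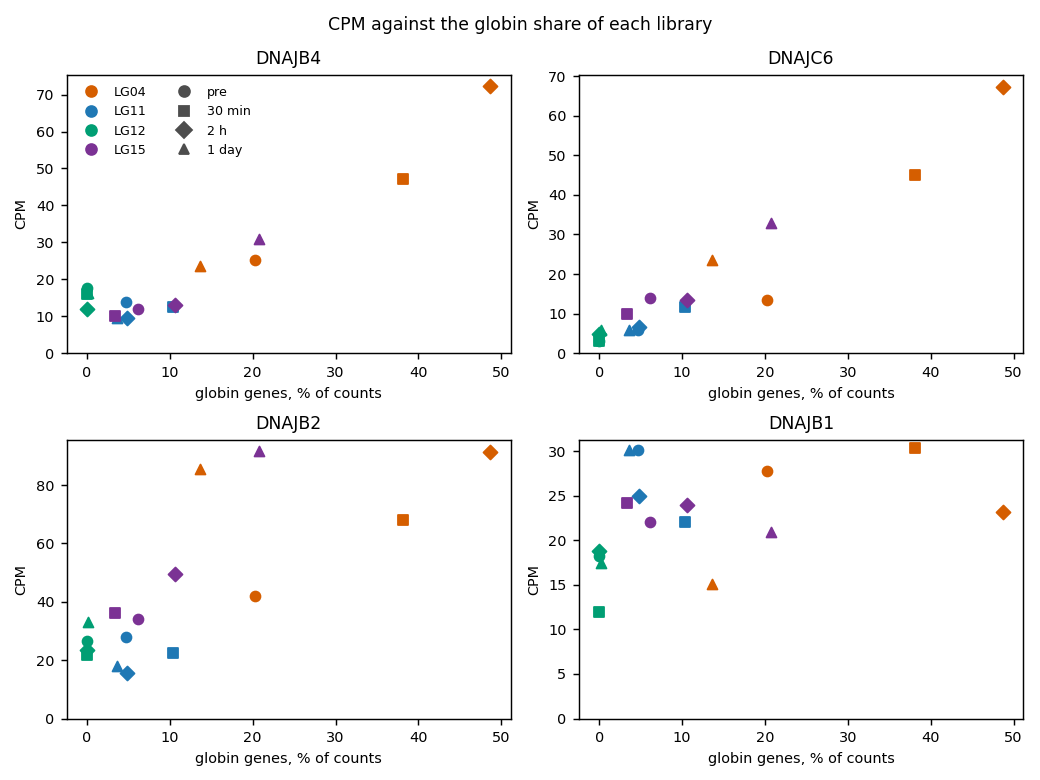
CPM of DNAJB4, DNAJC6, DNAJB2 and, for contrast, DNAJB1 against the percent of counts on globin genes in each of 16 libraries (colour, animal; shape, time). The LG04 libraries at 38.2% and 48.7% globin are the highest for DNAJB4 (47.2 and 72.3 CPM) and DNAJC6 (45.1 and 67.2 CPM), while DNAJB1 lies between 11.9 and 30.3 CPM at all globin shares.

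The HSP70 partners were compared by lists of pathway genes. Of 16 HSP70 and HSP110 genes 9 were tested, while HSPA1A, HSPA1B and HSPA1L were listed at 0 in all 16 libraries, a limit of these tables that leaves the inducible HSP70 unmeasured. Of the tested genes 8 of 9 had a log2 fold change below 0 at 2 hours (median -0.23, beside 0.02 over all genes) and 6 of 9 above 0 at 1 day against 2 hours (median 0.20), where 51.9% of all genes were below 0. HSPH1, the HSP110 that works with DNAJ proteins in pulling aggregates apart, was 102 CPM ± 15.2 before, 58.5 CPM ± 10.8 at 30 minutes, 47.2 CPM ± 11.9 at 2 hours and 137 CPM ± 48.9 at 1 day (SD, n = 4). Its value at 2 hours was -1.14 ± 0.17 on the log2 scale (edgeR adjusted p 0.0805), and it rose from 2 hours to 1 day by 1.52 ± 0.17 (adjusted p 0.00661), higher in 4 of 4 animals. That call holds without the 1 day (adjusted p 0.0157) or the 2 hour library of LG04 (0.0298) and without LG04 (0.0456). It is lost without LG11 (0.132), LG12 (0.0584), LG15 (0.115) or the 4 shallowest libraries (0.136), with log2 values from 1.48 to 1.64. HSPA8, the constitutive HSP70 and main partner of the cytosolic members, was 757, 728, 590.4 and 890.3 CPM on average over the 4 times (SD 119, 124, 125 and 188), with 0.59 ± 0.17 at 1 day against 2 hours (adjusted p 0.236), and 0.39 without the 4 shallowest libraries.

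Among 8 tested heat-shock factor targets outside the DNAJ and HSP70 families, 0 of 8 were called at 2 hours or at 1 day against pre-treatment. All 8 had a log2 fold change below 0 at 2 hours (median -0.35) and above 0 at 1 day (median 0.37). Of all genes 47.3% and 50.0% were below 0 at these times. At 1 day against 2 hours all 8 were above 0 (median 0.62), where 51.9% of all genes were below 0. Of the 8, 7 had an unadjusted edgeR p under 0.05, beside 12.6% of all genes, and 1 was called, beside 0.104%. That gene was FKBP4, a co-chaperone of HSP90, which rose by 1.61 ± 0.22 (edgeR adjusted p 0.0138), with means of 26.1, 22.5, 13.3 and 40.1 CPM over the 4 times (SD 5.03, 4.78, 3.77 and 8.14). The FKBP4 call is lost when any one animal is left out (adjusted p between 0.0738 and 0.217) or without the 4 shallowest libraries (0.999), with log2 values from 1.38 to 1.79, and holds without the 1 day (0.0352) or 2 hour library of LG04 (0.0483). The 3 heat-inducible members, DNAJA1, DNAJB1 and DNAJB4, had a median of -0.10 at 2 hours and 0.02 at 1 day against 2 hours. These medians cover unlike values. In that order the members had -0.28, -0.10 and 0.20 at 2 hours, and 0.73, -0.11 and 0.02 at 1 day against 2 hours. DNAJA1 was higher at 1 day than at 2 hours in 4 of 4 animals, and DNAJB4 had an SE of 0.41.

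Cell type markers also moved over these times. The monocyte score, the mean log2(CPM + 1) of 10 markers, was higher than before in 3 of 4 animals at 30 minutes and in 4 of 4 at 2 hours. At 1 day it was higher by 1.68 in LG11 and 1.88 in LG12, and differed by -0.86 in LG04 and -0.22 in LG15. The edgeR log2 fold changes of the 10 monocyte markers had a median of 1.13 at 1 day, with 9 above 0. The NK cell score, from 8 markers, was lower at 30 minutes in 4 of 4 animals (-0.57 to -0.77), when DNAJA4 and DNAJC1 were lower too. All 8 NK markers had an unadjusted edgeR p under 0.05 then (median log2 -0.79), beside 2.53% of all genes. The T cell score was lower at 2 hours in 4 of 4 animals (median difference -0.48), and the platelet score higher at 1 day in 4 of 4 (median 1.92). The neutrophil score was lower at 1 day in 3 of 4 animals, and the median log2 fold change of its 8 markers was -1.64. None of these markers was called at these times, with a smallest edgeR adjusted p of 0.076, and none was at 0 in all 16 libraries. The part of cell composition in the DNAJ values was not tested.

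Of the 12 tested exchange factors and HSP70 co-factors, 0 were called at 30 minutes, 2 hours or 1 day. At 2 hours 10 of 12 had a log2 fold change below 0 (median -0.14), beside 47.3% of all genes. STIP1, which hands clients from HSP70 to HSP90, was 62.5 CPM ± 13.0 before and 40.9 CPM ± 3.58 at 2 hours (log2 -0.60 ± 0.18, edgeR adjusted p 0.409). Both tested heat-shock factors, HSF1 and HSF2, had values without a call. Of 16 ER stress genes 0 were called in the comparisons with pre-treatment. At each of the 3 times 10 of 16 were below 0, with medians of -0.02, -0.05 and -0.07, beside 46.0%, 47.3% and 50.0% of all genes below 0. HERPUD1, a target of the unfolded protein response, was 108 CPM ± 18.2 before and 67.4 CPM ± 21.1 at 1 day (-0.69 ± 0.16, adjusted p 0.0895), and -0.39 without the 4 shallowest libraries. HSPA5, which encodes BiP, the partner of the luminal ER members, was 288 CPM ± 39.9 before and 219 CPM ± 31.3 at 1 day (-0.39 ± 0.16, adjusted p 0.308), and -0.24 without those libraries.

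The 16 members that were not tested had too few counts. DNAJB5, DNAJC28 and DNAJC4 had mean levels of 1.39, 1.30 and 1.22 CPM and counts in at least 15 libraries. DNAJC22, DNAJB13, DNAJB7 and DNAJC5B had between 5 and 14 counts in all 16 libraries together. DNAJC12, DNAJC5G and DNAJB3 had 1 count each and DNAJB8 had 0, which at 3 counts allows at most 0.35 to 2.12 CPM in a library. The 5 testis members, DNAJB3, DNAJB7, DNAJB8, DNAJB13 and DNAJC5G, were thus listed at or near 0. BAG6, a gene that most cells use, was also listed at 0, so a 0 in tables counted on human gene models does not show that a gene was not expressed. The rule also took 5 symbols that are antisense, readthrough or pseudogene entries. Among these DNAJB8-AS1 had 29 counts, DNAJC27-AS1 10, DNAJC9-AS1 4, DNAJA1P5 1 and DNAJC25-GNG10 0. The limit of 3 counts covers counting error only, and its CPM values are scaled by total counts.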

How the data were processed

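Counts were deposited by the authors as whole numbers per gene and library, not normalized; per the submitters' processing notes, FastQC, Trimmomatic, STAR, HTSeq, DESeq and edgeR were used with the human builds GRCh37 and hg19. Macaque reads were thus counted on human gene models, which can undercount diverged genes, and for settings and strand nothing is stated in the sources at hand. Overlapping, antisense and near-identical genes are therefore uncertain. FPKM values were also deposited by the authors and serve only for levels between genes and 1 alternative. Entries of the same symbol were summed. Groups came from the sample titles, which name animal and time. Genes passing filterByExpr (11545) were fitted in edgeR 4.0.16 (R 4.3.3) with TMM, glmQLFit and glmQLFTest, animal plus time, 9 residual degrees of freedom, and Benjamini-Hochberg adjustment over all tested genes at 0.05. Each animal gave blood 4 times, so the animal is the replicate block. SEs are Wald values with the moderated dispersion, and intervals are at 95%. The fit was tested on simulated counts: of 100 genes changed by a log2 of 1 it recovered 49, 45 and 39 at 30 minutes, 2 hours and 1 day, and of 100 changed by 2 it recovered 87, 92 and 95, among 11545 genes. Both sizes were planted together, with 5, 3 and 10 false calls. The simulated counts held no differences between animals, and the changed genes were drawn from the more expressed ones. The recovery is therefore not the power for the DNAJ members. Alternatives used DESeq2 1.42.0, limma 3.58.1 on log2(FPKM + 1), other scalings, filters and left-out libraries. Members named with values in each library were those called in any test, the 10 with the smallest p over time, the 6 with the highest CPM and 9 chosen by role; partner genes named were the 2 with the smallest p in each list and comparison with pre-treatment. Members and lists were chosen with earlier results of these data known.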

Additional observations from a re-analysis of the deposited data

Results flagged for a closer look

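Among the 20 members given in each library, 80 sets of 4 animals at 1 time were checked for a single value far from the rest by Dixon's criterion, and 6 stood out. Chance marks about 1 independent set in 20, a rate that does not apply here. Of the 6 sets, 5 belong to members that the edgeR test between animals called, and sets of 1 member share their animals. LG04 stood apart for DNAJB4 at 30 minutes (47.2 CPM, others 10.2 to 16.2) and at 2 hours (72.3 CPM, others 9.6 to 13.0), and for DNAJC6 at 2 hours (67.2 CPM, others 4.8 to 13.5). LG11 stood apart for DNAJB9 at 1 day (34.6 CPM, others 19.7 to 20.9) and for DNAJC3 at 2 hours (133.1 CPM, others 86.4 to 92.8). LG15 stood apart for DNAJC5 at 2 hours (85.4 CPM, others 40.9 to 47.1).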

How the results depend on the processing

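Over 12 alternatives to each of 20 member results, 232 of 240 kept direction and side of the threshold. DNAJA4 at 2 hours passed only in DESeq2 (-0.92, adjusted p 0.0395). Values that changed sign, none of them called, were DNAJA2 at 1 day (0.007) without the 1 day library of LG04, DNAJB1 at 1 day (0.006) and DNAJC14 at 1 day (0.023) without the 4 shallowest libraries, DNAJB4 at 1 day (-0.28) without LG15, DNAJB6 at 1 day without LG04 (-0.13) and without its 1 day library (-0.058), and DNAJC14 at 1 day (0.014) without LG12. Leaving out each animal gave -0.283 to 0.549 for DNAJB4, -0.127 to 0.276 for DNAJB6 and -0.232 to 0.014 for DNAJC14. The cause was not tested.

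No member was called without the replicate block. The number of genes called without the replicate block was 3 at 1 day, 0 at 1 day against 2 hours and 2 over the 4 times, with the pairing taken from the animal named in the titles. DESeq2 called 11, 79, 400, 3, 114 and 440 genes at 30 minutes, 2 hours, 1 day, 2 hours against 30 minutes, 1 day against 2 hours and over the 4 times, with 1 member at 2 hours, 1 at 1 day against 2 hours and 1 over the 4 times. With no filter 7, 70 and 87 genes were called at 2 hours, at 1 day and over the 4 times. Leaving out each animal gave 1 to 67 genes at 1 day, 0 to 2 at 1 day against 2 hours, 0 to 2 over the 4 times, and 3 to 9 members between animals. Without the 4 shallowest libraries 0, 0 and 0 genes were called in those tests over time, and 4 members between animals. Without the 1 day library of LG04 the counts were 2 at 2 hours, 6 at 1 day against 2 hours and 2 over the 4 times. Over the 4 times, 1 gene was called without the 2 hour library of LG04, an alternative chosen after seeing the data, and 25 with globin genes left out. FPKM in limma called 2 genes at 1 day against 2 hours and gave member medians of -0.119, -0.261 and -0.217 at 30 minutes, 2 hours and 1 day, beside -0.095, -0.158 and -0.178 over all genes.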
